A study of Homo sapiens with 6 samples.

Results

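The genes described here are 9 core factors of nonsense-mediated mRNA decay: UPF1, UPF2, UPF3A, UPF3B, SMG1, SMG5, SMG6, SMG8 and SMG9. They were chosen by gene name among 62252 annotated genes, and hold 96 annotated transcripts. Levels were measured in K562 cells, an erythroid leukemia cell line, kept overnight with 10 µM 21H7, a cell-permeable iron chelator (the Chelator group, n = 3), or with the same volume of its solvent DMSO (the DMSO group, n = 3), to follow how RNA levels and splicing change when iron is scarce. All 6 libraries come from the same unmodified line, and the series design calls the 3 libraries of a group biological replicates. Polyadenylated RNA was sequenced to between 78.6 and 101.1 M estimated counts per library (M, 1e+06 counts).

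Nonsense-mediated decay removes mRNAs on which the ribosome stops too early, and also lowers many normal mRNAs. UPF1, an RNA helicase, is recruited to the terminating ribosome, is joined by UPF2 and UPF3A or UPF3B, which connect it to exon junction complexes left downstream of the stop codon, and is phosphorylated by the kinase SMG1, held in a complex with SMG8 and SMG9. Phosphorylated UPF1 then binds SMG6, an endonuclease that cuts the mRNA, and SMG5, which helps to bring in deadenylation and decapping enzymes. Several of these factors are encoded by mRNAs that the pathway itself degrades.

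The erythroid identity of the cells was checked first. All 8 erythroid and K562 markers were present in every library (HBG1, a fetal globin, between 3663 and 4891 TPM). Of the 8, 5 were higher in Chelator without overlap, among them the embryonic globin HBE1 (2649 to 2910 TPM in DMSO, 4556 to 5143 in Chelator) and ALAS2, the erythroid enzyme that starts heme synthesis (14.7 to 20.8 and 33.1 to 35.4), and 2 were lower, the erythroid transcription factors KLF1 (77.8 to 87.4 and 47.7 to 52.9) and TAL1 (48.7 to 61.7 and 42.9 to 46.1). CDKN2A, which is deleted in K562 cells, was at 0 in every library. Of 10 markers of other cell types, 5 were under 1 TPM in every library (CD3E, MS4A1, CD14, KRT5 and COL3A1, with MS4A1 at 0 throughout). Their summed level was 91.2 to 93.2 TPM in DMSO and 108 to 116 TPM in Chelator, most of it from EPCAM, CD3D and LYZ. In Chelator 5 of the 10 were higher without overlap and EPCAM was lower. The part of either marker list in the results was not tested. The mean fragment length was 252 to 264 bases in DMSO and 200 to 218 bases in Chelator, so that treatment and fragment length cannot be told apart.

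SMG8 was the member with the clearest change, lower by 32.0% in Chelator, and the other members with a lower estimate were SMG1, SMG6, SMG5, UPF1 and UPF2. UPF3A, UPF3B and SMG9 had estimates slightly above 0. In RNA from whole cultures, fewer cells of a kind and less RNA per cell cannot be told apart. Of the 9 members, all tested, 2 passed an adjusted p under 0.05 in DESeq2's Wald test across all genes, SMG8 and SMG6, both lower, and 0 were higher. Over all genes with an adjusted p, 37.7% passed that threshold, 19.5% higher (4774 genes) and 18.3% lower (4486 genes). With the libraries centred on the mean log2 change, which shifts the median gene by -0.10, 3695 genes were higher and 5489 lower. Among genes within the members' range of mean normalized count, 64.6% passed. The members' share, 2 of 9, was below both backgrounds in this fit, a difference that rests on 9 genes and was not tested. With centring 5 of 9 members passed, against 37.4% of all genes and 66.4% of genes in their count range, and with trends of GC content and length removed 6 of 9 passed, against 38.9% and 68.4%.

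No member changed by 2-fold: 0 of 9 met the stricter rule that also asks for an absolute log2 fold change above 1, against 10.8% of all genes. At an unadjusted p under 0.05 by DESeq2, 3 members passed (SMG8, SMG6 and SMG1), against 43.9% of all genes. The median log2 fold change of the members was -0.09, beside 0.016 over all genes and -0.12 over genes in their count range. In 7 of the 9 members the absolute log2 fold change was under 0.2, and the median absolute change was 0.094 in the members and 0.29 in genes of their count range. The DMSO and Chelator values did not overlap in 5 members (UPF1, SMG1, SMG5, SMG6 and SMG8), against 49.2% of all genes.

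**Figure D1:**
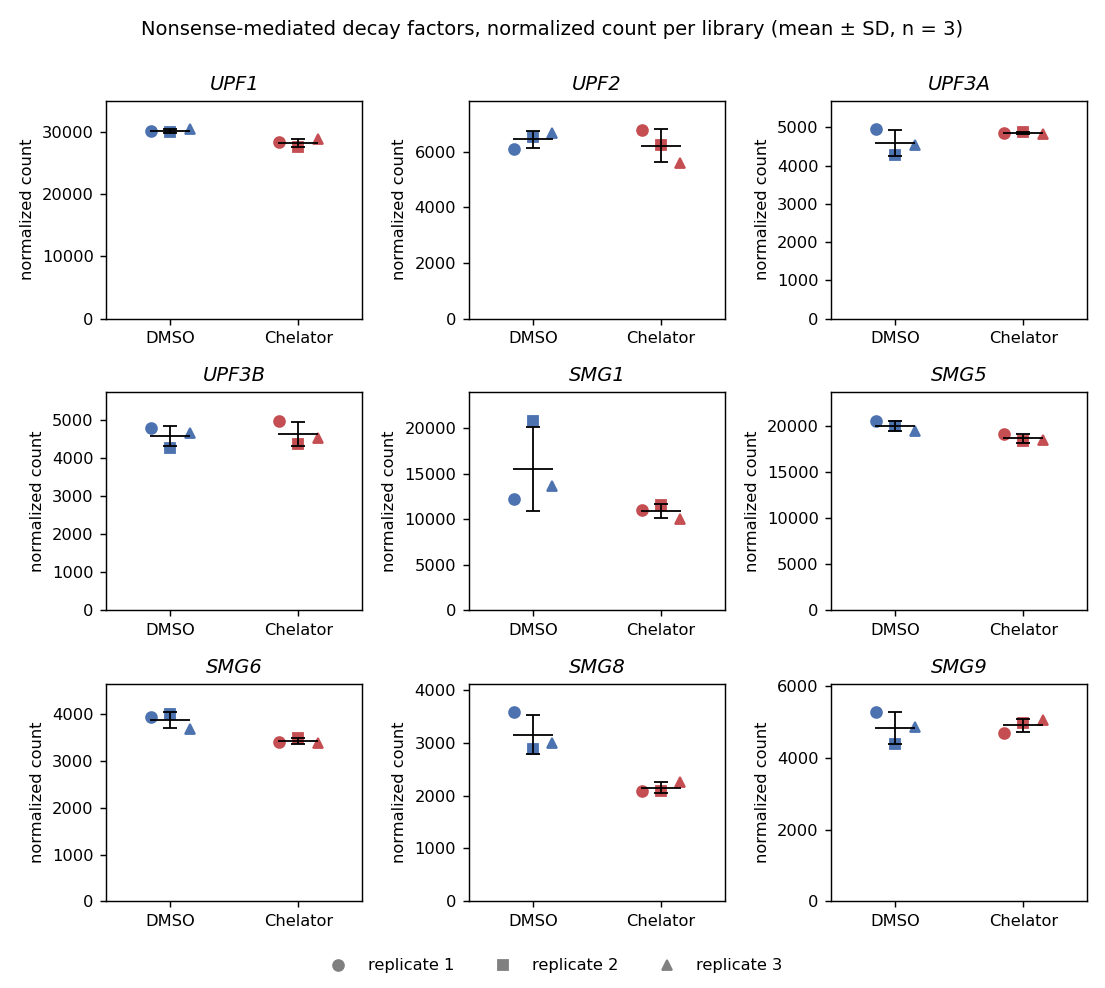
Normalized count of each of the 9 factors (vertical axis, from 0) in the 3 DMSO libraries (blue) and the 3 Chelator libraries (red), with circles, squares and triangles for replicates 1, 2 and 3 and black bars for the mean ± SD. The 3 SMG8 values are lower in Chelator, SMG1 has 1 DMSO library far above the others, and most other members sit at similar heights in both groups.

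UPF1 (chromosome 19, 18831959 to 18868230, plus strand, GRCh38), the helicase at the center of the pathway, was the most abundant member. Normalized counts, which are counts divided by a library's size factor and by the gene's relative transcript length there, were 30040, 29892 and 30401 in DMSO and 28279, 27554 and 28823 in Chelator. Every Chelator library was below every DMSO library, but the difference was small. The log2 fold change was -0.09 ± 0.06 (SE), which did not pass (DESeq2 adjusted p = 0.220). The 95% interval, -0.21 to 0.02, leaves room for no change and for a small decrease.

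Transcript shares, each transcript's TPM as a percentage of its gene's TPM, showed which UPF1 forms made up this level. The main coding transcript, UPF1-201, held 82.1%, 82.9% and 83.2% of UPF1 in DMSO and 87.8%, 86.4% and 86.2% in Chelator. Transcripts annotated as decay targets held 6.25% ± 1.54 (SD, n = 3) in DMSO and 3.52% ± 1.04 in Chelator, and those with retained introns 7.23% ± 0.453 and 5.40% ± 0.695. In all 3 cases the groups did not overlap. These shares are parts of the same total, so that a rise of 1 goes with a fall of others. How often transcript shares do not overlap over all genes was not counted, here or for the members below. For normalized counts of genes it was 49.2%. The class of annotated decay targets was not lower in the other members that have it, with means of 0.211% and 1.27% in SMG1, 0% and 0.977% in SMG8 and 0.356% and 0.441% in SMG9 (DMSO and Chelator), all with overlap. Usage of UPF1 transcripts nevertheless did not pass the test across all genes (edgeR diffSpliceDGE with the Simes method, adjusted p = 1.00), which weighs shares against the count noise of each transcript. By that test 0 of the 9 members changed, against 9.22% of the 11938 genes tested, and no transcript of a member had an unadjusted p under 0.05, against 8.36% of the transcripts tested. With limma voom and diffSplice in place of edgeR, 1 member passed, UPF3A, against 26.7% of genes.

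The decay-annotated share of UPF1 came mostly from transcript UPF1-216, with an exon of 80 bases (chr19:18851050-18851129, plus strand) that is skipped in the main transcript. Its length is not a multiple of 3, so that its inclusion shifts the reading frame. The exon is shown with 15 bases of its transcript on either side, the exon in capitals, followed by a second short UPF1 segment, the 33 bases (chr19:18853072-18853104) that coding transcript UPF1-207 has in addition to UPF1-201 and that add 11 residues, also in capitals. All sequences printed here are those of GENCODE release 44 transcripts on GRCh38, read 5′ to 3′ along the transcript.
UPF1 80-base exon: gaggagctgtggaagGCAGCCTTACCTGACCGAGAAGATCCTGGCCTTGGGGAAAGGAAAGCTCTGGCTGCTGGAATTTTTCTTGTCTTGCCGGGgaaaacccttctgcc
UPF1 33-base segment: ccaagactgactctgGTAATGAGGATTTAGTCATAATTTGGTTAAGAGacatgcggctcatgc

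The 80-base exon was spliced in at 4.37%, 5.44% and 7.13% in DMSO and at 1.73%, 3.26% and 3.56% in Chelator. Percent spliced in (PSI) was taken from the TPM of transcripts that hold or skip an exon between the same neighboring exons. The Chelator values were all lower, with a mean difference of -2.80 percentage points that did not pass (limma adjusted p = 0.218). Coding transcript UPF1-207, with the 33-base segment, held 3.47% ± 2.04 of UPF1 in DMSO and 3.94% ± 1.02 in Chelator, with overlapping groups. Both features were chosen for description after their values were seen.

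UPF2 (chromosome 10, 11920022 to 12043170, minus strand), the adaptor between UPF1 and the UPF3 proteins, had normalized counts of 6103, 6545 and 6682 in DMSO and 6798, 6237 and 5602 in Chelator. The highest and the lowest of the 6 values were both Chelator libraries. The log2 fold change was -0.05 ± 0.09 (DESeq2 adjusted p = 0.704), and its sign turned in several alternatives. The full-length coding transcript UPF2-202 held 77.2% ± 3.46 of UPF2 in DMSO and 84.2% ± 2.54 in Chelator, without overlap. A 640-base transcript with no defined coding sequence, UPF2-204, made up nearly all the rest, 22.6% ± 3.14 and 15.6% ± 2.55. That transcript had 88 to 156 estimated counts per library, so that its share rests on few reads.

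UPF3A (chromosome 13, 114281601 to 114305817, plus strand) and UPF3B (chromosome X, 119834022 to 119852998, minus strand) are paralogs that compete for the same place on UPF2, with UPF3B the stronger activator of decay. UPF3A had normalized counts of 4948, 4274 and 4545 in DMSO and 4841, 4862 and 4815 in Chelator. The 3 Chelator libraries lay close together inside the DMSO range, and the log2 fold change was 0.08 ± 0.08 (DESeq2 adjusted p = 0.503). For UPF3B the counts were 4772, 4270 and 4647 in DMSO and 4977, 4373 and 4533 in Chelator. These groups overlapped too, and the log2 fold change was 0.02 ± 0.08 (DESeq2 adjusted p = 0.888), with a 95% interval of -0.15 to 0.19. For both paralogs the estimate was negative with the libraries centred on the mean log2 change.

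Per length and with all transcript classes summed, UPF3A was the more abundant paralog in every library. The ratio of UPF3A to UPF3B TPM was 1.38, 1.33 and 1.30 in DMSO and 1.29, 1.47 and 1.41 in Chelator. The lowest ratio and the highest were both from Chelator, and the mean log2 ratio differed by 0.06 (exact two-sided permutation test, p = 0.50, n = 3 per group). With 3 libraries against 3 that test cannot go below 0.10. With protein-coding transcripts alone the order of the paralogs turned: UPF3A was below UPF3B in every library, at a ratio of 0.733, 0.784 and 0.761 in DMSO and 0.690, 0.803 and 0.715 in Chelator, and the difference of the mean log2 ratio was -0.05. The 3 UPF3AP copies of UPF3A held at most 27 counts each in any library.

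The shares of UPF3A transcripts differed more between the groups than its level did. Transcript UPF3A-203, 748 bases with no defined coding sequence, held 5.97%, 8.97% and 11.2% of UPF3A in DMSO and 17.6%, 15.2% and 18.6% in Chelator. It had 94 to 141 estimated counts in the DMSO libraries and 317 to 323 in the Chelator libraries. Coding transcript UPF3A-201 held 24.2% ± 1.11 and 17.8% ± 3.45, and the canonical coding transcript UPF3A-202 24.8% ± 3.05 and 28.5% ± 2.92. The groups did not overlap for UPF3A-203 and UPF3A-201 and did for UPF3A-202. Across all genes the change of UPF3A usage did not pass by edgeR (adjusted p = 1.00), but passed by limma voom and diffSplice (adjusted p = 0.0227), with 8.39 percentage points for the transcript that changed most.

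These UPF3A transcripts differ in a pair of neighboring exons, of 99 and 111 bases, both multiples of 3 that keep the reading frame and encode 33 and 37 residues. UPF3A-202 holds both exons, UPF3A-201 only the 111-base exon, and UPF3A-203 neither. A shorter UPF3A protein without the residues of the 99-base exon is known, and that exon encodes part of the domain that binds UPF2. Both exons are printed with 15 flanking transcript bases in lower case and the exon in capitals, at chr13:114286302-114286400 (in UPF3A-202) and chr13:114286519-114286629 (in UPF3A-201), plus strand. A further exon, of 39 bases in UPF3B-201 (chrX:119840646-119840684, minus strand, 13 residues), is the one that separates the UPF3B coding transcripts.
UPF3A 99-base exon: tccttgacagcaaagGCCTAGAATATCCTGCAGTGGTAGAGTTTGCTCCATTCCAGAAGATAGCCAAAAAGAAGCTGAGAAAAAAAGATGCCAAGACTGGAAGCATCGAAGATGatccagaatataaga
UPF3A 111-base exon: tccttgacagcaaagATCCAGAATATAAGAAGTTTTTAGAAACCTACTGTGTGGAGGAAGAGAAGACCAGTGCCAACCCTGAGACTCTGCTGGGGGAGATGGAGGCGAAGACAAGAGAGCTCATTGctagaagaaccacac
UPF3B 39-base exon: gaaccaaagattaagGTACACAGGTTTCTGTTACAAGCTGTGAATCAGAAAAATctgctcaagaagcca

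Among UPF3A transcripts that skip the 99-base exon, the 111-base exon was spliced in at 83.1%, 75.8% and 70.4% in DMSO and at 60.5%, 56.8% and 48.9% in Chelator. All Chelator values were below all DMSO values, with a mean difference of -21.0 percentage points. It had the smallest p of the 11 annotated skipped exons in the members, but did not pass over all exons tested (limma adjusted p = 0.130 at a pseudocount of 0.1 TPM). At a pseudocount of 1 TPM it did (limma adjusted p = 0.0372). The skipping form is measured by UPF3A-203 alone, so that both results rest on the same reads. The adjusted p ran from 0.0372 to 0.286 over its alternatives.

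The 99-base exon had a PSI of 46.3%, 48.1% and 53.5% in DMSO and of 51.6%, 59.95% and 66.2% in Chelator, with 1 value overlapping (limma adjusted p = 0.360). The 39-base exon of UPF3B had a PSI of 32.2% ± 2.90 in DMSO and 27.3% ± 3.01 in Chelator, also with overlap (limma adjusted p = 0.506). These exons were chosen for description after their values were seen. In all, 0 of the 11 member exons passed, against 0.61% of the 37384 exons tested. The paper called far more skipped exons after chelation, with rMATS on aligned reads, so that this low share belongs to the present test. At an unadjusted limma p under 0.05, 2 of the 11 passed, against 18.9% of the exons tested. They were the 111-base exon of UPF3A and the 80-base exon of UPF1.

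**Figure D2:**
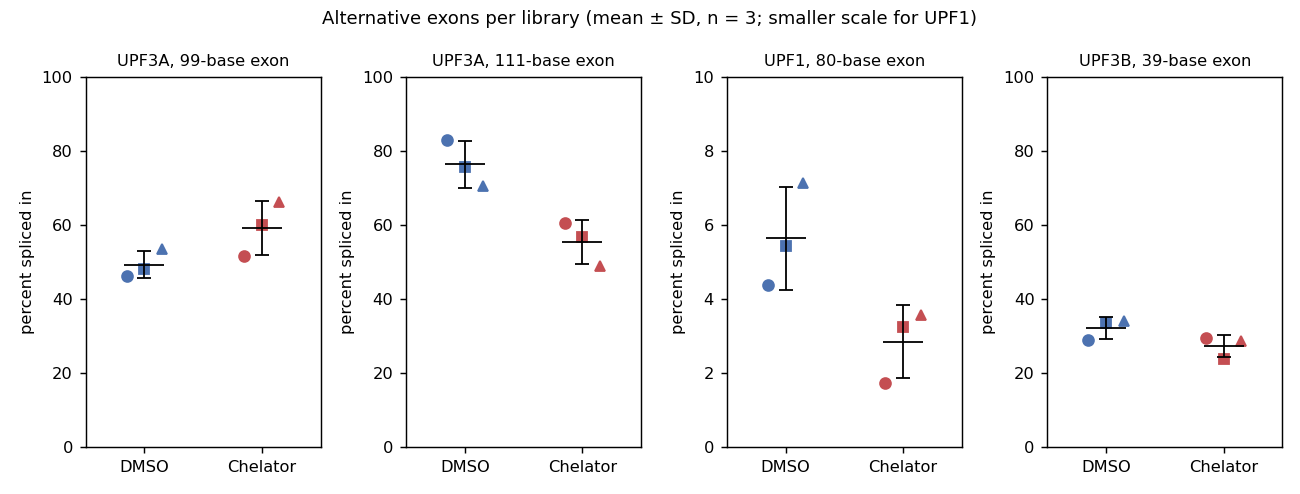
Percent spliced in of 4 alternative exons of the factors (vertical axis, in percent, with a smaller scale for UPF1) in each DMSO (blue) and Chelator (red) library, with the mean ± SD. The UPF3A 111-base exon averages 76.4% in DMSO and 55.4% in Chelator without overlap of the groups, and no exon passed the test across all exons.

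SMG8 (chromosome 17, 59209400 to 59215239, plus strand), which restrains the kinase SMG1, was lower in every Chelator library. Its normalized counts were 3578, 2882 and 2994 in DMSO and 2076, 2093 and 2263 in Chelator. The highest Chelator library was well below the lowest DMSO library, and the spread within each group was smaller than the gap between the means, 3151 ± 374 and 2144 ± 103. The log2 fold change was -0.56 ± 0.10 (DESeq2 adjusted p = 3.73e-07), with a 95% interval of -0.76 to -0.36. The decrease passed in all 19 alternatives, between -0.66 and -0.46. In TPM, SMG8 was at 15, 14.3 and 12.7 in DMSO and 9.18, 9.81 and 10.3 in Chelator.

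The SMG8 decrease was carried by its main transcript. SMG8-201 held 88.1% ± 5.48 of SMG8 in DMSO and 87.3% ± 2.61 in Chelator, and protein-coding transcripts together 100% and 99%. SMG8 has the shortest 3′ untranslated region of the 9 canonical transcripts, 228 bases, and the fewest exons, 4. Among the genes whose normalized counts followed those of SMG8 most closely over the 6 libraries were ENTR1 (Pearson r = 0.997) and VPS25 (r = 0.996), out of 10341 genes averaging 500 normalized counts or more. All 6 libraries enter each value, so that genes which differ between the groups in the same way will score high.

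SMG9 (chromosome 19, 43727983 to 43754962, minus strand), which pairs with SMG8 on the kinase, had normalized counts of 5265, 4382 and 4846 in DMSO and 4695, 4972 and 5045 in Chelator. The Chelator values lay inside the DMSO range, and the log2 fold change was 0.02 ± 0.09 (DESeq2 adjusted p = 0.884). That sign turned with the libraries centred on the mean log2 change. With trends of GC content and transcript length removed SMG9 passed as lower, at -0.18 (DESeq2 adjusted p = 0.0258, and up to 0.988 over its alternatives). With a replicate block added to that fit, SMG9 did not pass (DESeq2 adjusted p = 0.0609). Per length, most of the SMG9 level was assigned to transcripts annotated with retained introns, 64.1% ± 2.43 of its TPM in DMSO and 62.9% ± 1.80 in Chelator. The largest of them, SMG9-210, held 28.1% ± 1.60 and 31.6% ± 2.32, without overlap, and the leading coding transcript SMG9-211 28.0% ± 1.61 and 29.6% ± 1.93. The other retained-intron transcripts above 10% had lower means in Chelator, SMG9-207 at 11.99% ± 0.897 and 10.2% ± 0.401, without overlap, and SMG9-208 at 13.7% ± 1.85 and 10.6% ± 2.25, with overlap. None of the 3 passed the test of usage across all genes (edgeR adjusted p = 1.00). SMG9-210, SMG9-207 and SMG9-208 are short transcripts, of 538, 574 and 681 bases, whose share per length rests on 107 to 480 counts. By estimated counts the coding transcript SMG9-211, of 2387 bases, was far above each of them, at 1964 to 2818 per library.

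**Figure D3:**
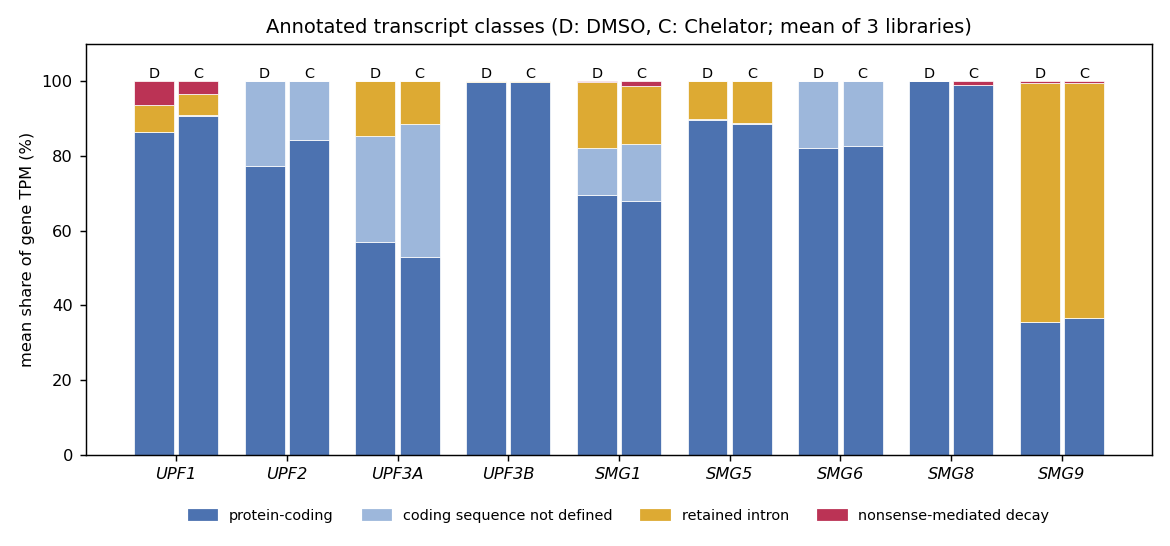
Mean share of each gene's TPM (vertical axis, in percent) held by annotated transcript classes, in DMSO (D) and Chelator (C), for the 9 factors. Protein-coding transcripts hold most of every gene except SMG9, where retained-intron transcripts hold 64.1% in DMSO and 62.9% in Chelator, and the decay-annotated class is visible mainly in UPF1.

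SMG1 (chromosome 16, 18804860 to 18926408, minus strand), the kinase that phosphorylates UPF1, had the second largest estimate and by far the widest error. Normalized counts were 12243, 20848 and 13626 in DMSO and 11041, 11534 and 10013 in Chelator. The groups did not overlap, but DMSO replicate 2 stood well above the other libraries. The log2 fold change was -0.52 ± 0.25 (DESeq2 adjusted p = 0.0963), so that the call was missed. Without DMSO replicate 2 the estimate shrank to -0.26 and passed (DESeq2 adjusted p = 0.0128), and without DMSO replicate 1 it was -0.67 (DESeq2 adjusted p = 1.16e-04). SMG1 also passed with edgeR (-0.48, adjusted p = 0.0482), in 8 of 21 alternatives in all, with adjusted p from 1.16e-04 to 0.906, and the value was below 0 in 20 of the 21.

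DMSO replicate 2 differed from the other DMSO libraries by gene length. Its median log2 deviation from the mean of those libraries was -0.17 for genes under 1 kb and 0.33 for the 147 genes over 8 kb. SMG1, whose canonical transcript is 16062 bases with 63 exons, deviated by 0.69 in that library, at the 99.4th percentile of 10341 genes. Of the 147 longest genes, 14 deviated more. With trends of GC content and length removed, the SMG1 log2 fold change was -0.29 (DESeq2 adjusted p = 0.0449).

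**Figure D4:**
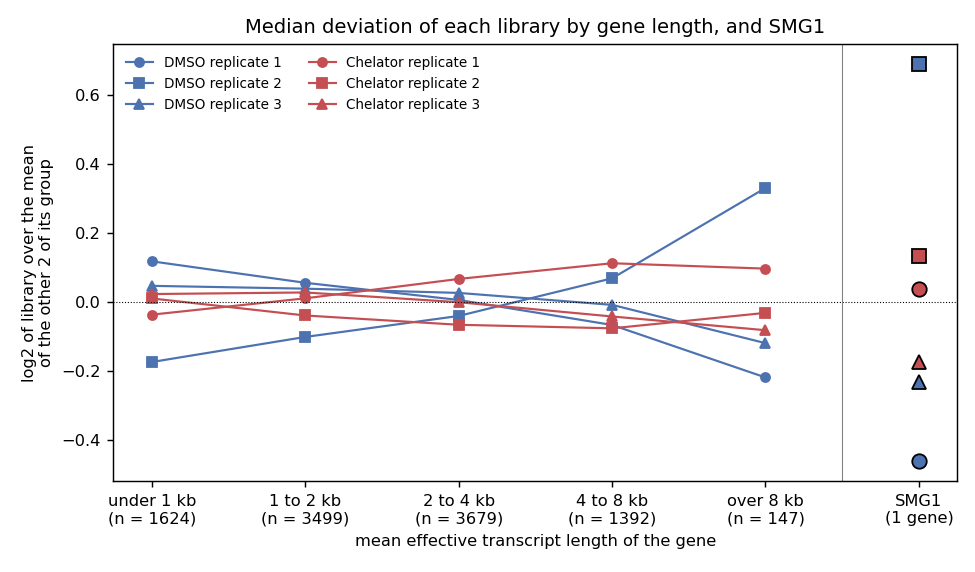
Median log2 deviation of each library from the mean of the other libraries of its group (vertical axis) for genes in classes of mean effective transcript length (horizontal axis, with the number of genes), and at the right the deviation of SMG1 alone. DMSO replicate 2 (blue squares) rises from -0.17 in the shortest class to 0.33 in the longest, and SMG1 lies at 0.69 in that library.

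SMG1 also has near-identical copies, and reads could be divided among them. Of the 31-base sequences of SMG1 transcripts, 20.5% also occur in other expressed genes. Most were in the lncRNA genes ENSG00000291060 and ENSG00000291073 on chromosome 16 and in the SMG1P genes. Fewer were shared with NPIPB5, at 6860 to 13346 counts per library, and BOLA2-SMG1P6, at 2849 to 3745. These and some other sharing genes were not added to the sums below. The reads assigned to those lncRNA genes together came to 20.8%, 24.4% and 20.1% of the SMG1 counts in DMSO and to 44.6%, 53.7% and 48.7% in Chelator. Reads assigned to the 9 SMG1P genes came to 9.15%, 6.02% and 9.61% of the SMG1 counts in DMSO and to 12.9%, 15.1% and 16.4% in Chelator. Both ratios were thus higher in every Chelator library. Neither lncRNA gene passed alone: ENSG00000291073 had a log2 fold change of 0.54 ± 0.28 (DESeq2 adjusted p = 0.127) and ENSG00000291060 of 0.42 ± 0.44 (DESeq2 adjusted p = 0.50). Of the SMG1P genes, SMG1P2 passed as higher, at 0.77 (DESeq2 adjusted p = 0.0141).

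With SMG1 and the SMG1P genes counted as 1 gene, the log2 fold change was -0.33 (DESeq2 adjusted p = 0.0357). With the lncRNA genes added as well, a choice made after seeing the data, it was 0.05 (DESeq2 adjusted p = 0.906), and -0.26 without the offset for transcript length (DESeq2 adjusted p = 0.534). The summed normalized counts were 14711, 25488 and 15892 in DMSO and 17883, 21403 and 18783 in Chelator with the offset, and 16365, 29320 and 16970 in DMSO and 16484, 18811 and 16968 in Chelator without it. The groups overlapped on both scales, and DMSO replicate 2 was the highest library on each. The SMG1 estimate is therefore uncertain: its size depends on which of the near-identical genes its reads are counted with, and its sign turned with the lncRNA genes and the length offset together.

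Within SMG1, the long coding transcript SMG1-201 held 39.9% ± 2.17 in DMSO and 39.5% ± 2.16 in Chelator. The shorter coding transcript SMG1-204 held 15.6% ± 4.13 and 12.6% ± 0.460, and SMG1-212, with no defined coding sequence, 12.6% ± 3.15 and 15.1% ± 1.11. All 3 overlapped between the groups.

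SMG6 (chromosome 17, 2059839 to 2303785, minus strand), the endonuclease, was slightly lower in Chelator. Its normalized counts were 3945, 4005 and 3692 in DMSO and 3400, 3497 and 3391 in Chelator. The groups did not overlap, and the log2 fold change of -0.18 ± 0.08 was just past the threshold (DESeq2 adjusted p = 0.0474). The call was lost in 13 of 19 alternatives, including edgeR (adjusted p = 0.143, beside 0.0025 to 0.381 over all of them) and 5 of the 6 fits that left out 1 library, while the estimate stayed below 0 in all of them. The gene HIC1 lies on the opposite strand over 2419 exonic bases of SMG6, at a mean of 2.13 TPM. The SMG6 transcript of that same length, SMG6-215, annotated with a retained intron, was at 0 TPM in every library. Whether the libraries kept the strand was not given in the sources used here. The main transcript SMG6-201 held 80.3% ± 7.65 of SMG6 in DMSO and 80.9% ± 10.7 in Chelator, and SMG6-207 held 12.7% ± 2.23 and 9.28% ± 2.01.

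SMG5 (chromosome 1, 156249224 to 156282825, minus strand), which binds phosphorylated UPF1, had normalized counts of 20580, 20001 and 19489 in DMSO and 19176, 18342 and 18419 in Chelator. The groups did not overlap, but the gap was narrow. The log2 fold change was -0.10 ± 0.06 (DESeq2 adjusted p = 0.20). SMG5-201, the coding transcript, held 89.7% ± 1.37 and 88.5% ± 2.01. UPF1 and SMG5 both passed as lower in 3 alternatives, at -0.20 and -0.21 with centring on the mean log2 change, and at -0.24 and -0.21 with trends of GC content and length removed, with or without a replicate block.

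The order of the levels per length was similar in both groups. In DMSO, mean TPM ran from UPF1 (74.7 ± 6.80), SMG5 (62.4 ± 6.10), SMG9 (45.6 ± 1.62), UPF3A (42.3 ± 2.05), UPF3B (31.7 ± 1.22), SMG1 (30.9 ± 12.4), UPF2 (22.7 ± 2.76) and SMG8 (14.0 ± 1.16) down to SMG6 (9.79 ± 1.25). In that order SMG9 and UPF3A, UPF3B and SMG1, and SMG1 and UPF2 overlapped in their library values. In Chelator the first 5 kept their places, UPF2 (22.2 ± 1.90) came before SMG1 (21.6 ± 1.86) with overlapping values, and SMG8 (9.77 ± 0.568) overlapped SMG6 (8.80 ± 0.392). Within each Chelator library SMG8 stayed above SMG6, at 9.18 beside 8.46 TPM, 9.81 beside 9.23 and 10.3 beside 8.70. The places of SMG9 and UPF3A rest on transcripts without an annotated coding sequence or with retained introns. With protein-coding transcripts alone, mean TPM in DMSO was 31.7 in UPF3B, 24.0 in UPF3A, 21.4 in SMG1, 17.5 in UPF2 and 16.2 in SMG9, and SMG8 did not overlap SMG6 in either group.

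The canonical transcripts of the members had a median of 5168 bases and 19 exons, beside 3275 bases and 9 exons over 15153 genes with an adjusted p and a coding canonical transcript. They were longer than that median in 6 of 9 members, the exceptions being UPF3A, UPF3B and SMG8, and had more exons in 8 of 9, all but SMG8. Their median 3′ untranslated region was 1363 bases, beside 1247, and ranged from 228 in SMG8 to 4709 in SMG1. An ATG within the 5′ untranslated region, a feature that can make an mRNA a decay target, was present in 4 of 9 members (UPF2, SMG1, SMG5 and SMG9), beside 42.1% of all. No member had an exon junction over 50 bases past the stop codon, the classical trigger of the pathway, beside 0.317% of all. These are descriptions of the annotation, and the number of members is too small to set them apart from other genes.

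Other genes of the pathway were described by 5 lists of 51 genes in all. Of 7 accessory factors, 6 were lower, 0 higher and 1 did not pass, with a median log2 fold change of -0.33. For these lists the background is 37.7% of all genes passing (18.3% lower), or 64.6% of genes in the members' count range (41.6% lower, median -0.12). PNRC2, a bridge to decapping, was at -0.64 ± 0.08 (DESeq2 adjusted p = 3.85e-15). Its normalized counts were 23364 to 25435 in DMSO and 14688 to 16970 in Chelator, without overlap. RUVBL2, an ATPase that maintains SMG1 and related kinases, was at -0.33.

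The 9 exon junction complex genes were split, 2 higher, 2 lower and 5 not passing, with a median of -0.03. EIF4A3, the helicase core, was at -0.43, RNPS1 at -0.34 and SAP18 at 0.41. Of 7 genes of termination and of cap or tail binding, 3 were lower and 0 higher, with a median of -0.12: the release factors ETF1 (-0.62) and GSPT1 (-0.63), which bind UPF1 at the stop codon, and the cap-binding protein NCBP1 (-0.57). Of 11 decay enzymes and their cofactors, 1 was higher and 4 lower, with a median of -0.12. The higher gene was DCP1A, a decapping cofactor (0.52), and among the lower ones were the decapping scaffold EDC4 (-0.26) and the exonuclease DIS3L2 (-0.39). No gene of these 4 lists passed 2-fold.

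**Figure D5:**
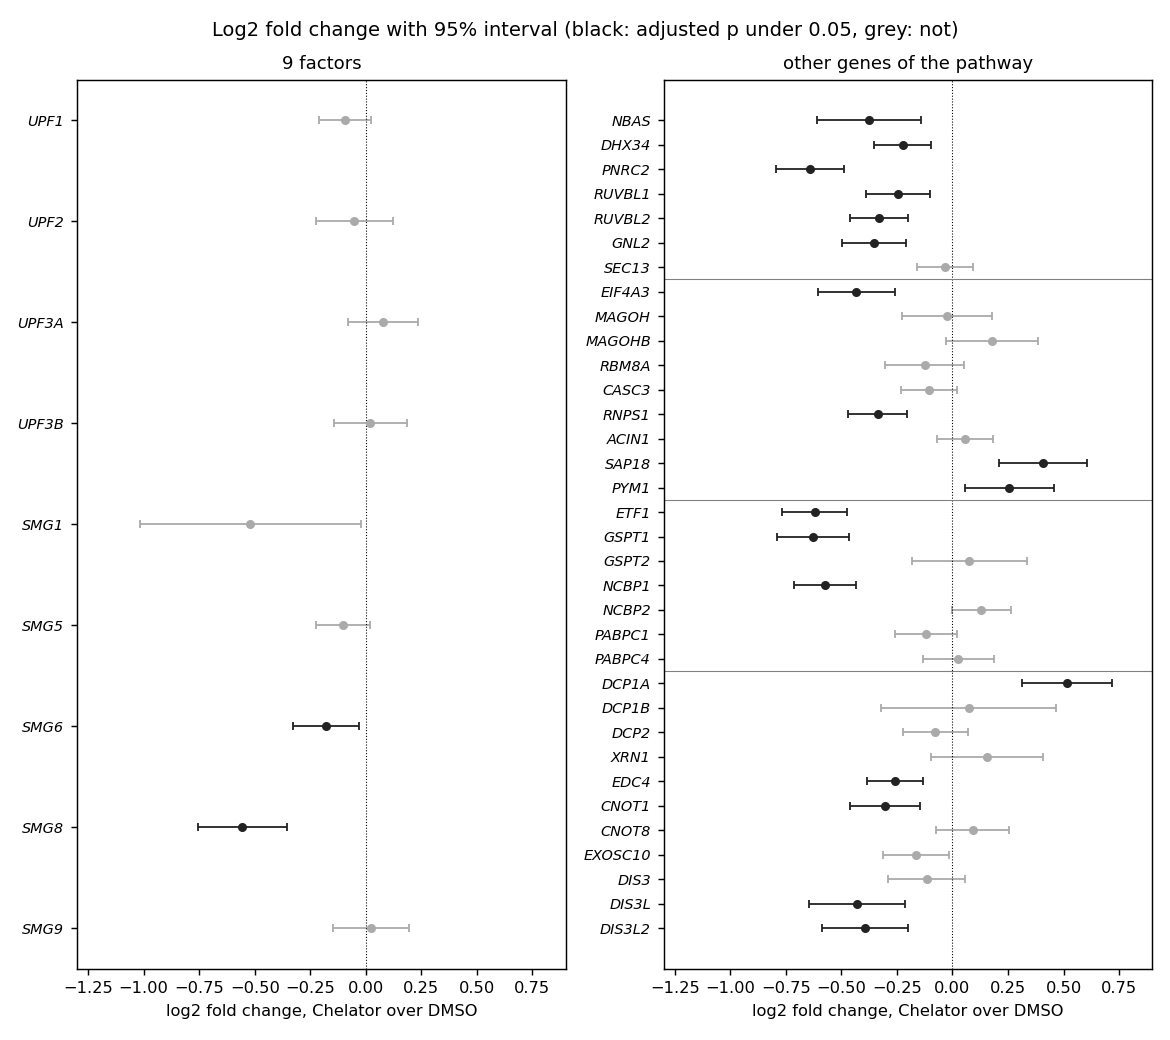
Log2 fold change of Chelator over DMSO (horizontal axis) with its 95% interval for the 9 factors (left) and for 4 lists of other pathway genes (right, from top to bottom accessory factors, exon junction complex, termination and cap or tail binding, decay enzymes), black where the DESeq2 adjusted p was under 0.05 and grey where it was not. SMG8 and SMG6 are black on the left, and 6 of the 7 genes of the first list on the right are black and below 0.

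Of 17 genes whose transcripts are widely used as endogenous targets of the pathway, 9 were higher, 3 lower and 5 did not pass, with a median of 0.55, and 5 of the higher ones rose past 2-fold. Over all genes, 19.5% were higher and 10.8% passed 2-fold in either direction. These levels are gene sums, which do not separate target transcripts from the other transcripts of the same gene. The transcription factors ATF3 (2.57 ± 0.12) and ATF4 (1.48 ± 0.07) and the tRNA synthetase gene CARS1 (0.84 ± 0.07) had the smallest adjusted p. These 3 genes are also known as genes of the amino acid and stress responses, so that a level of theirs does not read decay alone. Whether RNA decay differed between the groups was not measured by these libraries, which give steady-state levels.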

How the data were processed

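RNA was measured in 3 DMSO and 3 Chelator libraries, grouped by the sample labels. The authors quantified reads with Salmon (version 1.10.2 in the submitters' notes), and deposited for each of 252045 transcripts an estimated count and a TPM value, estimated counts scaled by effective length and to the same sum in every library. The annotation used and strandedness were not given in the sources used here. Transcripts were matched to GENCODE release 44 (GRCh38, 1-based coordinates): 251142 had the same version and length, 470 another, and 433, with 0.139% to 0.150% of a library's counts, had no match and were left out.

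Gene values are the rounded sums of a gene's estimated counts. DESeq2 (version 1.42.0) fitted all 26074 genes with a total above 10, by Wald test with median-ratio size factors and effective length as offset, and gave 24542 adjusted p-values (Benjamini-Hochberg). Genes were called at an adjusted p under 0.05, and separately at a change of over 2-fold as well (log2 1), as in the study's methods. Transcript usage was tested with edgeR diffSpliceDGE (version 4.0.16), for transcripts that reached 10 counts in 3 libraries or more, and called with a share changed by over 5 percentage points. Skipped exons were tested with limma (version 3.58.1) on log2 inclusion over exclusion TPM, at a pseudocount of 0.1 TPM. Exons and shares come from transcript estimates and not from junction reads. The main DESeq2, diffSpliceDGE and limma fits were also run on simulated data, which held no differences of transcript or fragment length. The alternatives were not simulated, and no result here rests on the simulations.

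The members and lists were chosen with earlier results of these data known. Of each list at most the 3 genes with the smallest adjusted p were named, of each member the transcripts with at least 10% of its TPM, and of the member exons the one with the smallest p. Some items that these rules take are not reported here, and list counts leave them out. Others are named as chosen after seeing their values. Alternatives covered tests, size factors, filters, offsets, copies, GC content and length, single libraries left out, and a replicate block.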

Additional observations from a re-analysis of the deposited data

How the results depend on the processing

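The number of members with an adjusted p under 0.05 was 2 in the DESeq2 fit. It was 1 with limma, TMM factors, library totals, no length offset, no filter or coding transcripts alone. It was 3 with the SMG1P and UPF3AP copies summed into SMG1 and UPF3A. With centring it was 5, with GC content and length trends removed 6, and with 1 library left out 1 to 2. Another sum took SMG1 with its sharing genes, here the SMG1P genes and the lncRNA genes named above. Without the offset that sum, chosen after seeing the data, gave 1. No member passed 2-fold in any of the 21 alternatives. The sign of the log2 fold change turned for UPF1 (0.034, coding transcripts), UPF2 (0.0087 with totals, 0.044 without offset, 0.13 with coding transcripts, 0.10 with trends removed and also with a replicate block), UPF3A (-0.028, centring), UPF3B (-0.084, centring), SMG9 (-0.083 with centring and -0.18 with trends removed, with and without block) and SMG1 (0.050, with its sharing genes). With 1 library left out it ran from -0.12 to 0.019 for UPF2, from -0.032 to 0.060 for UPF3B and from -0.048 to 0.085 for SMG9. The UPF3A to UPF3B ratio turned to -0.047 with coding transcripts and ran from 0.02 to 0.11 with 1 library left out. The number of members with changed usage rose from 0 to 1 with limma voom, and that of member exons from 0 to 1 at 1 TPM. In these cases the cause was not tested.

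Over all genes, usage calls ran from 539 (without Chelator replicate 3) and 592 (without Chelator replicate 2) to 3184 (limma voom), beside 1101, and exon calls from 31 to 107 with 1 library left out and 1610 at 1 TPM, beside 228, with 0 under the block. Replicate numbers are shared by the groups, but same-numbered libraries deviated together with r of -0.07, 0.13 and 0.11, so that they were not taken as pairs. With the replicate block 2 members passed, SMG8 and SMG1 (-0.48), and with the block and trends removed 5. Depth limits the short transcripts, some with under 100 counts, more than the gene sums.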
